A study of Mus musculus with 8 samples.

Results

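The subcortical maternal complex is an assembly of proteins, made by the growing oocyte, that lies beneath the plasma membrane of the egg and is passed on to the early embryo. The genes chosen by name for it and its close partners were Nlrp5, Ooep, Tle6, Khdc3, Padi6, Zbed3, Nlrp2 and Nlrp4f, and their rows were taken by gene symbol from the tables of ribosome-bound and total mRNA. Of these 8 genes, 7 were measured in both tables, among 8898 genes with ribosome-bound mRNA, 10530 genes with total mRNA and 8537 genes with both. Khdc3, which encodes the KH-domain protein FILIA, was listed in neither table.

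RiboTag IP/RNA-Seq was performed on MII oocytes of young (1 month) and old (12 to 15 months, retired breeders) C57BL/6 females of the genotype RiboTagF/F;Zp3-Cre. In mice of both ages, Cre driven by the oocyte promoter Zp3 switches on an HA-tagged ribosomal protein, Rpl22, so that ribosomes of oocytes, and not of the cumulus cells around them, carry the tag. All females received 5 IU PMSG and 10 IU hCG 48 h later, and oocytes were collected 13 h after hCG and lysed in pools of 200. For each of the 2 old and 2 young pools, 10% of the lysate served as input (total mRNA) and the HA immunoprecipitate gave the ribosome-bound mRNA, so that 8 libraries were sequenced. Each library held between 37817382 and 60052814 reads on genes, and 3 reads corresponded to between 0.0388 and 0.111 CPM, far below the members' levels. The defining oocyte markers were present (10 of 12 listed names measured), with summed HA levels of 12648 to 17265 CPM in old and 11467 to 11977 CPM in young libraries, and summed input levels of 10143 to 10545 CPM in old and 11019 to 11341 CPM in young libraries. In the deposited scaling, which is TMM, the oocyte markers thus stood higher in HA and lower in input in both old pools. Nlrp5 had the same directions in that scaling. The TMM factors of both old HA libraries lay below those of both young ones, which raises old relative to young HA values. The marker sums were not computed with equal library sums, so their direction in HA is given for the deposited scaling only. The cumulus and granulosa markers (5 of 14 measured in HA, 10 of 14 in input) summed to 91.6 to 145 CPM in old and 205 to 210 CPM in young HA libraries, and to 156 to 318 CPM in old and 200 to 285 CPM in young input libraries. None of 6 blood markers was listed in either table. The part of these markers in the results was not tested.

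NLRP5, also called MATER, is the scaffold of the complex and forms its core together with OOEP (FLOPED) and TLE6, while FILIA binds to this core. ZBED3 is a zinc finger protein that joins the complex. PADI6, a member of the peptidylarginine deiminase family, is needed for the cytoplasmic lattices of the egg. NLRP2 and NLRP4F are NLR family proteins that associate with the complex. Females that lack NLRP5, OOEP, TLE6 or PADI6 make eggs whose embryos stop in early cleavage. The mRNAs are made during oocyte growth. Transcription is largely silent in the maturing oocyte, so that what is translated there is set by the loading of stored mRNAs onto ribosomes and by their decay. Cytoplasmic polyadenylation elements (CPEs), short T-rich motifs in the 3'-UTR that are bound by CPEB1, are a known control point of this loading.

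The 3'-UTRs of the members differed in these motifs. The letters TTTTAT and TTTTAAT were searched on the sense strand of 3'-UTRs from GENCODE M21 (build GRCm38), with the longest one annotated for a gene taken first. The 1085 bases of Zbed3 held 5 such motifs and the 845 bases of Nlrp4f held 3, whereas the other 6 genes, including Nlrp5, Ooep and Khdc3, held 0. The longest annotation of Nlrp4f, Nlrp5 and Nlrp2 belongs to a transcript marked for nonsense-mediated decay. In the coding transcript with the longest coding part, the 3'-UTR of Nlrp4f was 588 bases with 2 motifs, that of Nlrp5 was 109 bases with 0 and that of Nlrp2 was 189 bases with 0. Either motif was present in 70.3% of 8208 genes searched, and among the 500 genes nearest in 3'-UTR length the share was 66.2% for Zbed3, 74.8% for Ooep and 29.4% for Khdc3. The 5 sites of Zbed3 are shown because it was the only member with more than 3 of them, with the motif in capitals, 5' to 3' on the plus strand of chromosome 13:
Zbed3 chr13:95336951-95336976: ggggcatggtTTTTATccaggaacct
Zbed3 chr13:95337631-95337656: taaatgccttTTTTATgagacgtttg
Zbed3 chr13:95337669-95337694: gaccattataTTTTATaaaaaccaca
Zbed3 chr13:95337807-95337833: ccttttttttTTTTAATaaacttttat
Zbed3 chr13:95337818-95337841: tttaataaacTTTTATttatctgc
The last of these windows runs to the annotated end of the transcript, with 8 bases behind the motif. The TTTTAAT motif shares its last 3 bases with the AATAAA hexamer, the polyadenylation signal, which ends 15 bases before that end. The 2 sites of Nlrp4f in its coding transcript are shown for comparison, from the minus strand of the same chromosome, and they lie 107 and 24 bases before the end of the transcript:
Nlrp4f chr13:65177213-65177238: tttggggaaaTTTTATttggctatgc
Nlrp4f chr13:65177130-65177155: ctgttttgtgTTTTATattaaagaat
Nlrp5 and Padi6 held the AATAAA hexamer, in capitals here, and neither CPE motif in front of it:
Nlrp5 chr7:23441889-23441914: gcaagaatgaAATAAAcacagcattt
Padi6 chr4:140727363-140727388: ccatagagccAATAAAgcatggtatt
In the longest 3'-UTRs, AATAAA was also found in Khdc3, with neither CPE motif, and in Zbed3, and in no other member. AATAAA was present in 82.9% of the 8208 genes. The Pumilio motif TGTANATA, present in 30.4%, was found in no member. These are matches of letters and not measured binding.

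Among the members, Zbed3 stood far above the rest in each library. Levels between genes are given as CPM per kilobase of exon, on the linear scale. In young input, Zbed3 had 11388 ± 2933 CPM per kilobase (SD, n = 2 pools), whereas the next member, Nlrp5, had 221 ± 19.9. Padi6 (217 ± 74.0) and Ooep (183.5 ± 38.9) followed, and their ranges over pools overlapped with the neighbouring member. Below a gap between Ooep and Nlrp4f came Nlrp4f (121 ± 10.3), Nlrp2 (106 ± 17.0) and Tle6 (101 ± 22.2), which overlapped. In old input, the order was Zbed3, Padi6, Ooep, Nlrp5, Nlrp4f, Nlrp2 and Tle6, and Padi6 (227 ± 16.8) lay apart from Ooep (181 ± 24.0). In HA, Zbed3 and then Nlrp5 were highest at both ages and each lay apart from the next member, while the 5 others formed a row of overlapping ranges that ended with Tle6 (75.0 ± 19.9 in young and 70.0 ± 59.8 in old HA).

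Zbed3 was the gene with the highest CPM in all 4 HA libraries, 6.02-fold and 5.09-fold above the second gene in old pools 1 and 2, and 4.01-fold and 2.95-fold in young pools 1 and 2. The second gene was Gm1965 in 3 of these libraries and the mitochondrial ribosomal RNA mt-Rnr2 in young pool 2. In input, Zbed3 was first in young pool 1 and came behind mitochondrial ribosomal RNAs in the 3 other pools. It made up between 86.2% and 95.1% of the members' summed CPM in a library. The 6 other members together held between 0.334% and 0.412% of reads in HA and between 0.251% and 0.381% in input.

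Reads were counted over the whole span of a gene, introns included, and without regard to strand. Zbed3 (ENSMUSG00000041995.7) lies at chr13:95323612-95337841, and exons make up 15.7% of this span, which also holds the snoRNA genes Snora47 and Gm22661 outside the tables. Exons cover 8.65% of Nlrp5 (ENSMUSG00000015721.18, chr7:23385889-23441922) and 6.69% of Nlrp2 (ENSMUSG00000035177.8, chr7:5298547-5351035), and 81.7% of the short gene Ooep (ENSMUSG00000032346.7, chr9:78376109-78378725). Padi6 (ENSMUSG00000040935.12, chr4:140727355-140742643), Tle6 (ENSMUSG00000034758.12, chr10:81590904-81601073) and Nlrp4f (ENSMUSG00000032999.9, chr13:65177111-65205977) lie between these, with 16.6%, 30.4% and 13.4%. Nlrp2 shares 499 bases with Gm5065 on the opposite strand, which was itself in both tables. Khdc3 (ENSMUSG00000092622.8, chr9:73101836-73104438) shares 1969 of its 2603 bases with Gm20509 on the same strand, and that gene was in the input table at 5.53 and 0.562 CPM in old pools 1 and 2 and at 9.62 and 0.0788 CPM in young pools 1 and 2. How reads on the shared bases were assigned, and its part in the absence of Khdc3, was not tested.

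**Figure D1:**
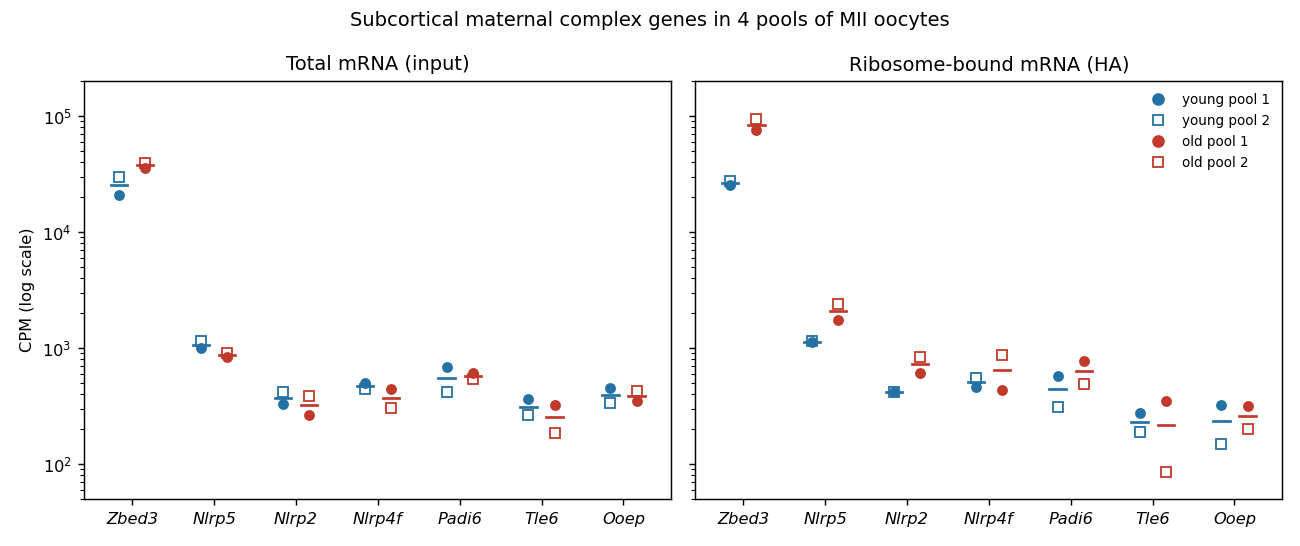
CPM (vertical, log scale) of the 7 measured genes in the input (left) and HA (right) libraries. Filled circles are pool 1 and open squares pool 2 of each age (blue young, red old), and bars are the mean of 2 pools. Zbed3 lies above all others in each library, and both old pools lie above both young pools for Zbed3, Nlrp5 and Nlrp2 in HA.

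The first comparison asked whether total mRNA of these genes differed between old and young MII oocytes. Zbed3 was the member with the highest input in old relative to young oocytes. Its input CPM was 35740 and 39140 in old pools 1 and 2 and 20779 and 30033 in young pools 1 and 2, so the ages did not overlap. The means were 37440 ± 2404 in old and 25406 ± 6544 in young (SD, n = 2 each), a ratio of 1.47. In pooled oocytes, a different level per cell and a different number of cells with the mRNA cannot be told apart. Nlrp5 went the other way, with 842 and 900 CPM in old and 1003 and 1139 CPM in young pools, again without overlap. Over all genes of the table, both old pools lay above both young pools in 16.4% and below them in 18.9%, compared with 1 member each of 7. The 5 other members overlapped between ages. Input CPM was 263 and 382 in old and 331 and 415 in young for Nlrp2, and it was 441 and 306 in old and 495 and 439 in young for Nlrp4f. For Padi6 it was 605 and 545 in old and 683 and 418 in young. Of the core genes, Ooep had 351 and 424 CPM in old and 451 and 334 CPM in young (ratio of means 0.988), and Tle6 had 322 and 184 CPM in old and 360 and 263 CPM in young (ratio 0.811, close to the 0.813 of Nlrp5).

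In limma on log2(CPM + 1), with Benjamini-Hochberg adjustment over all 10530 genes, the log2 difference of input (old minus young) was 0.58 for Zbed3 (standard error 0.25, adjusted p = 0.778). It was -0.30 for Nlrp5 (standard error 0.22, adjusted p = 0.885), and between -0.34 and 0.10 for the 5 others. No member passed the adjustment in limma, in edgeR's quasi-likelihood or likelihood ratio test or in DESeq2 (0.00950%, 0%, 0.475% and 1.08% of all genes), and Zbed3 was the 1 member at an unadjusted p under 0.05 in limma, compared with 6.18% of all genes. The median log2 difference was -0.22 over the 7 members and -0.03 over all genes. The single unadjusted call for Zbed3 was not stable when 1 pool was left out, which leaves 1 pool in an age. The log2 difference of Zbed3 was then between 0.32 and 0.85, and it was -0.21 after quantile normalization.

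The second comparison asked whether the ribosome-bound mRNA differed. Here Zbed3, Nlrp5 and Nlrp2 stood higher in both old pools than in both young pools, whereas the core genes Ooep and Tle6 did not. Zbed3 had 75186 and 93370 HA CPM in old pools 1 and 2 and 25172 and 27633 in young pools 1 and 2, a ratio of means of 3.19. Nlrp5 had 1747 and 2383 HA CPM in old and 1123 and 1150 in young, a ratio of 1.82. Nlrp2 had 609 and 836 HA CPM in old and 418 and 421 in young, a ratio of 1.72. In these 3 genes the young pools lay close together and the old pools spread, with old pool 2 the higher one each time. Both old pools lay above both young pools in 17.2% of all 8898 genes.

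The other 4 members overlapped between ages. Nlrp4f had 436 and 862 HA CPM in old and 461 and 554 in young, so that old pool 1 was the lowest and old pool 2 the highest of the 4 pools. Padi6 had 771 and 486 HA CPM in old and 578 and 313 in young. In Padi6, Tle6 and Ooep, pool 1 was the higher pool at each age, the reverse of Nlrp4f, Nlrp5, Nlrp2 and Zbed3. Tle6 had 347 and 85.7 HA CPM in old and 275 and 188 in young, so both old pools lay outside the young range, on opposite sides. Ooep had 317 and 200 HA CPM in old and 325 and 149 in young, with the old pools inside the young range.

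In limma with Benjamini-Hochberg adjustment over all 8898 genes, the log2 difference of HA was 1.67 for Zbed3 (standard error 0.31, adjusted p = 0.297), 0.84 for Nlrp5 (standard error 0.35, adjusted p = 0.335) and 0.76 for Nlrp2 (standard error 0.39, adjusted p = 0.447). For Padi6, Nlrp4f, Ooep and Tle6 it was 0.52, 0.28, 0.20 and -0.40, with standard errors between 0.46 and 0.73. In this fit 0 members passed the adjustment (0% of all genes) and 2, Zbed3 and Nlrp5, had an unadjusted p under 0.05, compared with 14.7% of all genes. On the recovered reads, the adjusted p of Zbed3 was 0.0578 in edgeR's likelihood ratio test, 0.294 in its quasi-likelihood test and 0.162 in DESeq2. Zbed3 thus passed 0.05 in none of these, compared with 3.32%, 0% and 5.71% of all genes. With a replicate block, though the labels pair no pools, Zbed3 passed in limma (adjusted p = 0.00162), as did 0.101% of all genes. Without old pool 1, Zbed3 passed in limma (adjusted p = 0.0203), as did 4.42% of all genes. The unadjusted count was between 0 and 4 when 1 pool was left out, with 0 without young pool 1 and without young pool 2, 1 without old pool 2 and 4 without old pool 1, while the share of all genes in these fits was 11.9%, 12.2%, 19.7% and 26.1%. The HA differences without young pool 1 and without young pool 2 were 1.60 and 1.73 for Zbed3 and 0.83 and 0.86 for Nlrp5.

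**Figure D2:**
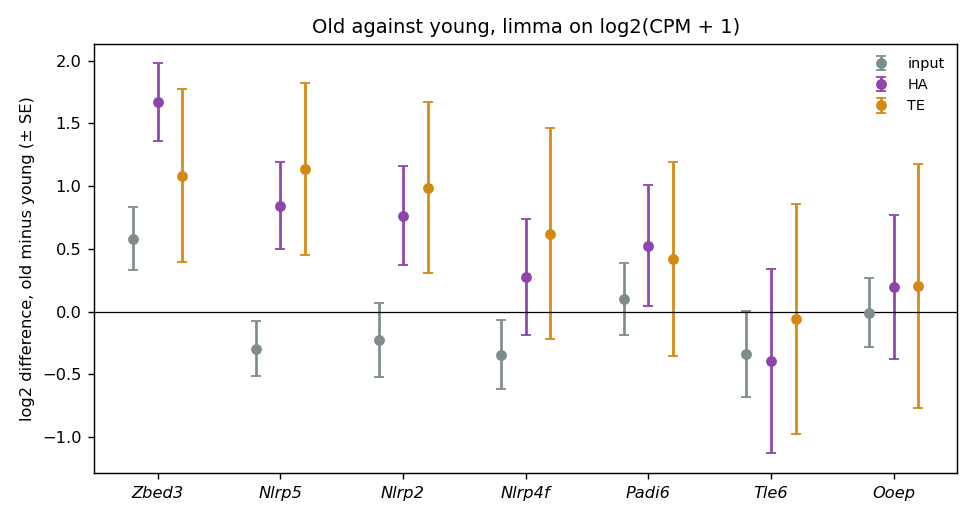
Log2 difference, old minus young, on the log2(CPM + 1) scale for input (grey), HA (purple) and TE (orange), with bars of 1 standard error from limma (2 old against 2 young pools). The HA difference of Zbed3, at 1.67, is the farthest from 0, and the TE bars are the widest for each gene.

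The members are abundant mRNAs, and in the deposited scaling abundant mRNAs as a class stood higher in old HA. The median log2 HA difference was 0.52 over the 7 members and -0.14 over all genes, but it was 0.61 in the top decile of genes by mean HA CPM, which holds Zbed3, Nlrp5, Nlrp2, Nlrp4f and Padi6. In the next decile, which holds Ooep and Tle6, it was 0.42. Within their own decile, 93.8% of genes lay below Zbed3, 64.2% below Nlrp5 and 60.4% below Nlrp2. Padi6 (43.0%), Ooep (36.3%), Nlrp4f (27.5%) and Tle6 (14.6%) had a smaller HA difference than the median gene of the same abundance. In input, where all 7 genes belong to the top decile, 91.0% of that decile lay below Zbed3. Nlrp5, Tle6 and Nlrp4f had only 8.45%, 7.31% and 7.03% of it below them. Rescaling to equal library sums moved the median HA difference of all genes by -0.54, and decile medians were not computed there. Genes without reads made up 2.89% and 4.11% in old and 0.112% and 0.865% in young HA libraries. Their part in the HA trend with abundance was not tested.

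**Figure D3:**
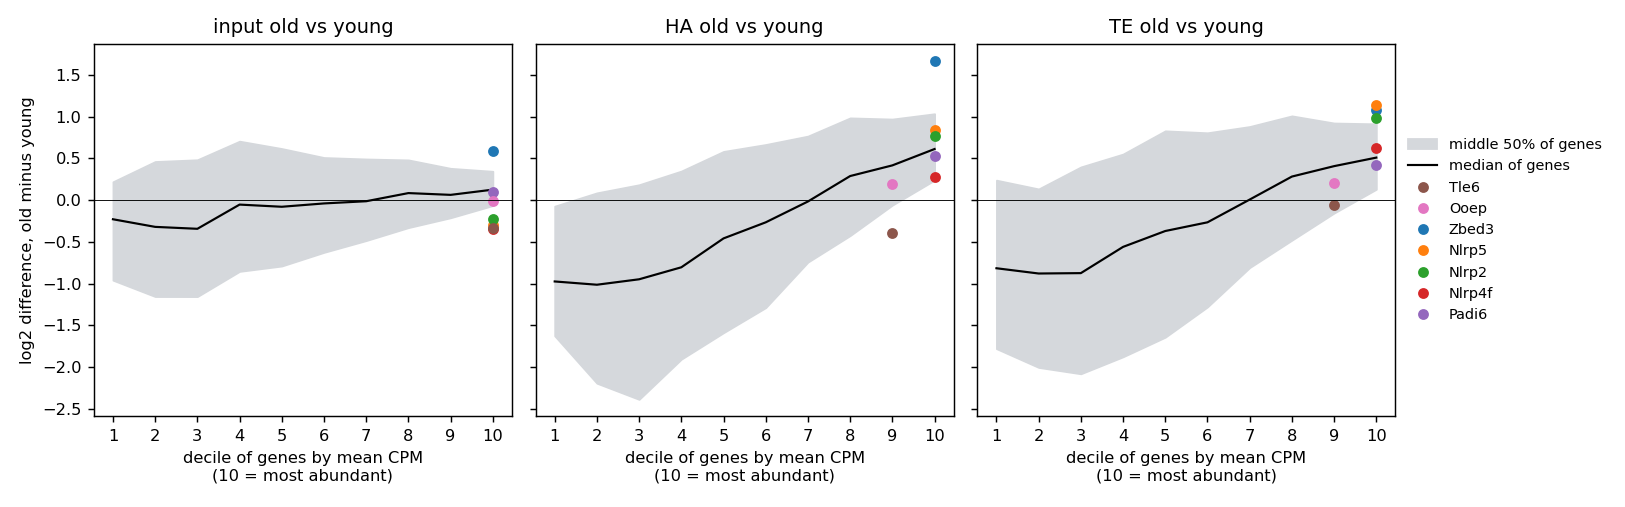
Log2 difference, old minus young, for input, HA and TE (left to right) against the decile of genes by mean CPM of the input table (left) or the HA table (middle and right), with 10 the most abundant. The line is the median and the band the middle 50% of genes. In the deposited scaling, the HA and TE lines climb with abundance from below 0 to above 0, to 0.61 and 0.51 in decile 10. Of the coloured members, Zbed3 alone lies above the HA band.

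The size of the HA difference also depended on how the libraries were scaled to each other. The deposited TMM scaling rests on the assumption that the bulk of genes does not differ between libraries. With each HA library rescaled to the same sum instead, the median of all genes moved by -0.54 on the log2 scale, and Padi6, Nlrp4f and Ooep were at -0.11, -0.36 and -0.44. Zbed3, Nlrp5 and Nlrp2 stayed above 0, at 1.03, 0.20 and 0.12. Relative to the median gene of the same scaling, Zbed3 stood at 1.80 with the deposited values and 1.71 with equal sums, Nlrp5 at 0.98 and 0.88, and Nlrp2 at 0.90 and 0.80. On the same relative scale Padi6 was at 0.66 and 0.56, Nlrp4f at 0.42 and 0.32 and Ooep at 0.33 and 0.24. Rescaling by 1 factor per library moves all genes nearly alike, so these relative values could hardly change. Quantile normalization gives the highest gene of each library the same value, so Zbed3 was at 0 there by construction. In that scaling Nlrp5 and Nlrp2 were at 0.05 and 0.11. Relative to its median gene they were at 0.11 and 0.16, and Padi6, Nlrp4f and Ooep were at -0.11, -0.33 and -0.34.

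**Figure D4:**
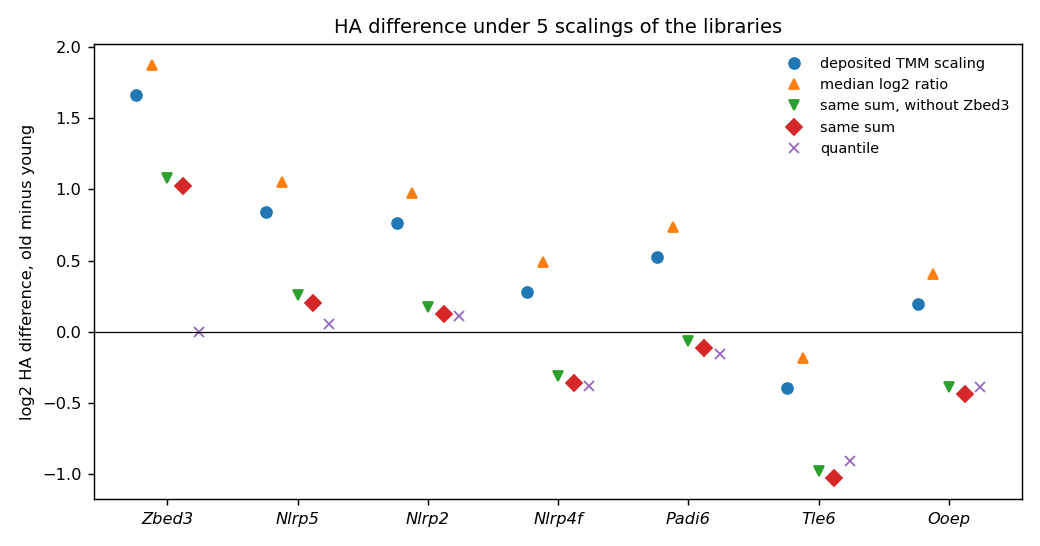
Log2 HA difference, old minus young, of each gene under the deposited TMM scaling and 4 other scalings of the HA libraries. Tle6 lies below 0 in all 5, Nlrp5 and Nlrp2 lie above 0 in all 5, and Padi6, Nlrp4f and Ooep lie below 0 with equal sums, where the median of all genes is at -0.68 and -0.64, and with quantile normalization.

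The third comparison concerned the translation efficiency (TE), which is the ratio of HA to input CPM in a pool. Since HA and input were normalized separately, a TE of 1 has no absolute meaning, and the median TE over all genes was 0.687 and 0.572 in old pools 1 and 2 and 0.729 and 0.724 in young pools 1 and 2. Zbed3, Nlrp5 and Nlrp2 had nearly the same TE as each other within each age. Zbed3 had a TE of 2.10 and 2.39 in old and 1.21 and 0.920 in young pools, Nlrp5 of 2.07 and 2.65 in old and 1.12 and 1.01 in young pools, and Nlrp2 of 2.32 and 2.19 in old and 1.27 and 1.01 in young pools. Each old pool lay above each young pool for these 3 genes and, by a small margin, for Padi6 (1.27 and 0.893 in old, 0.846 and 0.748 in young). In the deposited scaling this made 4 of 7 members, compared with 17.2% of all genes of any abundance. The median log2 TE difference rose from -0.82 in the lowest decile by HA CPM to 0.51 in the highest, which holds 5 members. With equal library sums the log2 TE difference of Padi6 was -0.028.

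The mean TE of old pools was 2.22 times that of young pools for Nlrp5, 2.11 times for Zbed3 and 1.98 times for Nlrp2. The 2 fractions contributed differently. In the deposited scaling, Nlrp5 and Nlrp2 had higher HA but not higher input in old oocytes (input ratio 0.813 and 0.865). In Zbed3 input and HA were both higher (1.47 and 3.19). With equal library sums, the log2 difference of Nlrp5 was 0.20 in HA and -0.48 in input, and that of Nlrp2 was 0.12 and -0.41. The log2 TE differences of Nlrp5, Zbed3 and Nlrp2 were then 0.69, 0.63 and 0.54. With quantile normalization they were 0.51, 0.21 and 0.48. Nlrp4f was split between the old pools, with a TE of 0.989 in old pool 1 and 2.82 in old pool 2, against 0.931 and 1.26 in young. The core genes Ooep and Tle6 lay on either side of the median gene in old pools, above it in pool 1 and below it in pool 2, with TEs of 0.903 and 0.472 in old and 0.719 and 0.445 in young for Ooep, and 1.08 and 0.466 in old and 0.764 and 0.715 in young for Tle6. In both genes old pool 1 was the highest of the 4 pools, and Ooep was lowest in young pool 2, where 27.7% of genes had a lower TE.

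**Figure D5:**
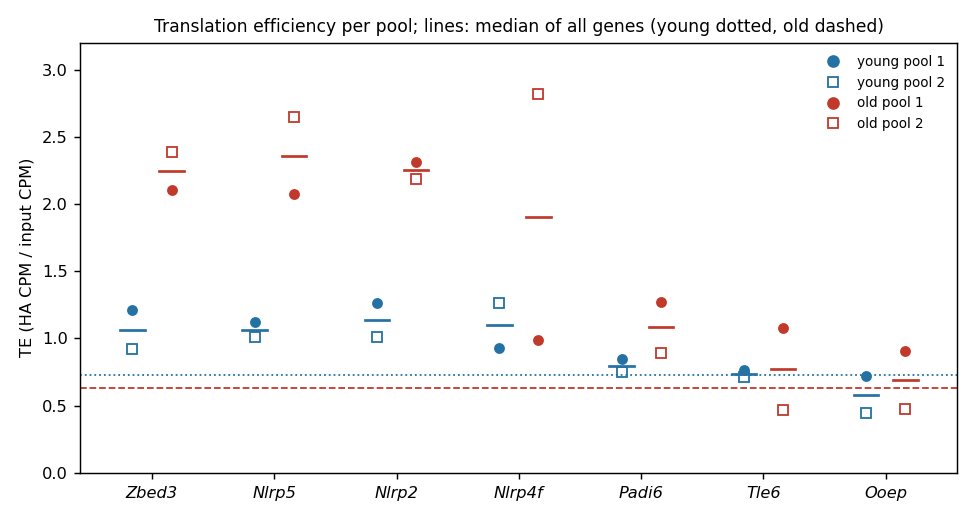
TE (HA CPM over input CPM, linear axis from 0) of each gene in each pool, with symbols as for the levels and bars for the mean of 2 pools. Dotted and dashed lines give the mean over 2 pools of the median TE of all genes in young and old oocytes. For Zbed3, Nlrp5 and Nlrp2 both old pools lie above 2 and the young pools lie near 1, and Nlrp4f lies above 2 in 1 old pool.

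In limma on log2 TE over 8537 genes, the log2 difference between ages was 1.14 for Nlrp5 (standard error 0.69, adjusted p = 0.781), 1.09 for Zbed3 (standard error 0.69, adjusted p = 0.789) and 0.99 for Nlrp2 (standard error 0.68, adjusted p = 0.805). It was 0.62, 0.42, 0.20 and -0.06 for Nlrp4f, Padi6, Ooep and Tle6. No member passed the adjustment (0% of all genes), and 0 had an unadjusted p under 0.05, compared with 6.56% of all genes. When age and fraction were fitted over the 8 libraries, the unadjusted p of the interaction was 0.00240 for Zbed3 and 0.0115 for Nlrp5 in limma and 0.00775 and 0.0146 in edgeR's quasi-likelihood test, with adjusted p = 0.691 for both in limma and 0.327 and 0.348 in edgeR. At an unadjusted p under 0.05 the 2 fits called 7.05% and 10.9% of all genes, and after adjustment 0% each. The median log2 TE difference was 0.62 over the members, -0.10 over all genes and 0.51 over the top decile by HA CPM. Within that decile, 86.1% of genes lay below Nlrp5, 83.4% below Zbed3, 79.3% below Nlrp2, 57.3% below Nlrp4f and 43.7% below Padi6. In the next decile, 40.7% of genes lay below Ooep and 29.5% below Tle6.

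Within one age, HA was compared with input after each pool was centred on its median gene. In young oocytes Nlrp2, Nlrp4f, Nlrp5 and Zbed3 lay close together, at 0.60, 0.54, 0.51 and 0.50 above the median gene on the log2 scale, with Padi6 at 0.09, Tle6 at -0.02 and Ooep at -0.40. None of the 7 had an unadjusted p under 0.05 in limma, compared with 4.21% of all genes, and none of the 7, nor any other gene (0%), passed the adjustment. In old oocytes the same 4 genes had the highest values, with Nlrp5 at 1.74, Nlrp2 at 1.68, Zbed3 at 1.68 and Nlrp4f at 1.25, whereas Padi6 was at 0.61, Tle6 at 0.02 and Ooep at -0.10. Nlrp4f rested on old pool 2, and without that pool it was at 0.41, below Padi6 (0.77) and Tle6 (0.53). Nlrp5, Nlrp2 and Zbed3 had an unadjusted p under 0.05 in limma (0.0176, 0.0188 and 0.0203, adjusted p = 0.187, 0.188 and 0.191), compared with 20.7% of all genes, and none passed the adjustment (0% of all genes). The count of 3 became 0 without young pool 1 or young pool 2, 1 without old pool 2 and 4 without old pool 1, and the share of all genes in these fits was 9.38%, 9.51%, 24.9% and 35.5%. Leaving out a young pool changed the error term alone, since the differences in old oocytes stayed at 1.74, 1.68 and 1.68. With limma's variance trend set on the mean level instead of the mean TE, an option chosen after seeing the data, the adjusted p of the 3 genes was 0.0252, 0.0437 and 0.00793, and 2.80% of all genes were called. The top decile of genes by HA CPM had a median of 1.12 in old and 0.49 in young oocytes, and in old oocytes 77.0% of it lay below Nlrp5 and 20.6% of the next decile lay below Ooep.

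Lists of related genes were read beside the members. The partners and cytoplasmic lattice list, which holds proteins bound to the complex and tubulin and 14-3-3 proteins, had 12 of 12 genes measured, with a median log2 difference of 0.59 in HA, 0.24 in input and 0.48 in TE. The list of maternal effect genes, whose loss in the mother harms the embryo, had 21 of 22 genes measured in HA, with medians of 0.31 in HA, 0.02 in input and 0.38 in TE. The near relatives of the members (other Nlrp, Tle, Padi, Zbed and KH-domain genes) had 18 of 26 measured in HA, with medians of 0.36 in HA, -0.0023 in input (20 measured) and -0.26 in TE (17 measured). Over all genes the medians were -0.14, -0.03 and -0.10. No gene of the 3 lists passed the adjustment in limma in HA, input or TE. At an unadjusted p under 0.05, Ywhaz was higher and Smarca4, Tle1 and Zbed5 were lower in old HA, Aes and Tle4 were higher and Cfl1 and Trim28 lower in old input, and Aes was lower in old TE. In HA this made 1 of 12 partners, 1 of 21 maternal effect genes and 2 of 18 near relatives, against 14.7% of all genes. The shares of all genes were 6.18% in input and 6.56% in TE. In old HA, Tle1 was near the floor at 0.0475 and 0.0739 CPM, as was Zbed5 at 0.0238 and 0 CPM. Aes was also near it there, at 0.0713 and 0.111 CPM, which enters its TE. The input of Aes was 10.6 and 176 CPM in old and 6.65 and 3.63 CPM in young pools.

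The most abundant genes of the lists included other NLR genes of the oocyte. Nlrp14 had 2730 and 4613 HA CPM in old and 1952 and 2463 in young pools, while its input was 1408 and 1259 CPM in old and 1423 and 1374 in young. Nlrp9a had 1282 and 2252 HA CPM in old and 1070 and 1057 in young, and 528 and 571 input CPM in old and 616 and 763 in young. Nlrp4a had 1719 and 1662 HA CPM in old and 1205 and 1224 in young, with 869 and 931 input CPM in old and 860 and 1033 in young. Reads on near-identical neighbours in the Nlrp4 and Nlrp9 groups could have been discarded or split between copies, which was not tested. These values, and that of Nlrp4f, are uncertain to that extent. In the deposited scaling, mean HA of the 3 genes was higher and mean input was not higher in old oocytes, as in Nlrp5 and Nlrp2. The log2 TE differences of the 3 genes were 0.76, 1.00 and 0.54 (adjusted p = 0.861, 0.814 and 0.891 in limma). Dnmt1, the maintenance DNA methyltransferase, had a TE of 1.66 and 1.62 in old and 1.14 and 1.15 in young. Ube2d3 and Dppa3 overlapped between ages, with TEs of 1.43 and 2.94 in old and 1.89 and 1.36 in young for Ube2d3, and 1.23 and 2.61 in old and 2.35 and 2.52 in young for Dppa3. Tet3, an enzyme that oxidizes methylated cytosine, had a TE of 0.854 and 0.797 in old and 0.896 and 0.515 in young.

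The genes whose level over the 8 libraries was most like the mean log2 level of the 7 members were Smurf1 (Pearson's r = 0.973), Ggta1 (0.964), Osbpl9 (0.955), Fam122b (0.955) and Ptov1 (0.952), among 5298 genes with at least 10 CPM on average in each table. These r values describe 8 libraries that differ in both fraction and age, and the 100 most similar genes all had an r of at least 0.840.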

How the data were processed

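RNA-Seq of 4 pools of MII oocytes (8 libraries) was analysed. Per the paper's Methods, the authors trimmed reads (Trimmomatic 0.36), aligned them to GRCm38 with HISAT2, counted them per gene with HTSeq (GENCODE M11, not strand-specific), removed low genes and applied TMM normalization separately to HA and input. The deposited signal values are the resulting CPM. Each value was a whole multiple of 1 read (100% of values, tolerance 0.01), so reads were recovered. The floors of 3 reads cover counting error only. Columns left out were 0.

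The main test was limma with eBayes trend on log2(CPM + 1), two-sided, and p-values were adjusted by Benjamini-Hochberg over the whole table. Fold changes on this scale understate low genes. TE was HA over input CPM of a pool, whose input came from the same lysate. An exact permutation test of 2 against 2 pools cannot go below p = 0.333. The labels do not say which animals made up a pool, so p-values measure the spread between these pools. Other pseudocounts (0.1 and 5 CPM), a filter of 10 CPM in 2 libraries, scalings, a replicate block, left-out pools, edgeR and DESeq2 on the recovered reads were alternatives. Scripts were tested on simulated data. The members, lists, markers and tests were chosen with earlier results of these data known. The named genes are all members, and of each list the 3 with the highest HA level and those with adjusted p under 0.05; list genes with an unadjusted p under 0.05 were named after their values were seen. Annotation and 3'-UTR sequences came from GENCODE M21, an M release later than that used for counting. Tests used limma 3.58.1, DESeq2 1.42.0 and edgeR 4.0.16 in R 4.3.3, and other steps pandas 2.3.3, numpy 2.4.6 and matplotlib 3.10.9 in Python 3.11.15.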

Additional observations from a re-analysis of the deposited data

How the results depend on the processing

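Of 462 values of single genes under alternatives, 411 kept their direction and their side of the threshold, 46 reversed and 5 newly passed the adjustment. The 411 include Zbed3 in HA under quantile normalization, which was at 0 and so had no direction. The causes were not tested. Zbed3, Nlrp5 and Nlrp2 kept a log2 HA and TE difference above 0 under each alternative run, except that Zbed3 in HA was at 0 under quantile normalization by construction.

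With libraries rescaled to the same sum, to the same sum without Zbed3 and by quantile normalization, in that order, the members' median log2 difference was -0.11, -0.063 and -0.16 in HA, -0.41, -0.40 and -0.37 in input and 0.17, 0.21 and 0.11 in TE. The HA differences were then -0.36, -0.31 and -0.38 for Nlrp4f, -0.44, -0.39 and -0.39 for Ooep and -0.11, -0.063 and -0.16 for Padi6. The first 2 scalings moved the median of all genes by -0.54 and -0.50. Relative to it these genes were at 0.32 and 0.33, 0.24 and 0.25, and 0.56 and 0.58, which 1 factor per library could hardly change. Relative to the median gene under quantile normalization they were at -0.33, -0.34 and -0.11. The input differences were -0.087, -0.074 and -0.062 for Padi6, and that of Zbed3 was -0.21 by quantile normalization. The first 2 scalings moved the input median of all genes by -0.17 and -0.16. Relative to the median gene of each scaling, Padi6 was at 0.108, 0.109 and -0.053 in input. In TE, Ooep was at -0.24, -0.20 and -0.25, and Padi6 at -0.028 and -0.098 in the first and the last. The first 2 scalings moved the TE median of all genes by -0.37 and -0.34. Relative to it Ooep was at 0.23 and 0.24 and Padi6 at 0.45 and 0.46. Relative to the median gene under quantile normalization Ooep and Padi6 were at -0.22 and -0.068. The number of members with an unadjusted p under 0.05 was 1, 1 and 0 in HA and 2, 2 and 1 in input. Shares of all genes were not computed for rescaled fits, so these counts have no background. Rescaling to the median log2 ratio gave 0 such members in input, 0.013 for Ooep in input and 0.13 for Tle6 in TE.

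Other tests gave 1 member at an unadjusted p under 0.05 in HA (edgeR's likelihood ratio test and DESeq2) and 0 in input (the likelihood ratio test). In TE there were 2 such members (both interaction fits and the trend on mean level). The interaction fits called 7.05% (limma) and 10.9% (edgeR) of all genes. Shares of all genes at an unadjusted p were not computed for the other fits named here. The trend on mean level, chosen after seeing the data, gave 1 member at an unadjusted p under 0.05 in HA over input in young oocytes. In old oocytes it gave 3 members with an adjusted p under 0.05, compared with 2.80% of all genes. Without a trend in eBayes, 0 members had an unadjusted p under 0.05 in HA and 0 in input. DESeq2 gave 0.079 for Tle6 in HA and 0.0057 for Ooep in input, and edgeR's interaction gave 0.20 for Tle6 in TE. With a pseudocount of 5 CPM, 0 members had an unadjusted p under 0.05 in input, and HA over input was -0.14 for Tle6 in old and -0.0044 for Padi6 in young. With 0.1 CPM it was 0.0018 for Ooep in old and 0.017 for Tle6 in young. The filter of 10 CPM put Tle6 in old at -0.32. Without centring, the median in old was 0.74 with 0 members at an unadjusted p under 0.05, Tle6 in old was at -0.49 and Padi6 in young at -0.33.

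When 1 pool was left out, the median was between 0.41 and 0.77 in HA, between -0.22 and 0.027 in input, and between 0.77 and 1.73 for HA over input in old. The count at an unadjusted p under 0.05 was between 0 and 4 in HA, 0 and 1 in input, and 0 and 4 for HA over input in old, and the adjusted count in HA was between 0 and 1. The HA differences ranged from -0.21 to 0.77 for Nlrp4f, from -0.36 to 0.76 for Ooep and from -1.40 to 0.61 for Tle6. The input differences ranged from -0.49 to 0.044 for Nlrp2, from -0.22 to 0.21 for Ooep, from -0.25 to 0.46 for Padi6 and from -0.74 to 0.063 for Tle6. In TE the range was -0.13 to 1.38 for Nlrp4f, -0.26 to 0.67 for Ooep and -0.66 to 0.54 for Tle6. HA over input ranged in old from 0.41 to 2.10 for Nlrp4f, from -0.48 to 0.28 for Ooep and from -0.49 to 0.53 for Tle6, and in young from -0.056 to 0.025 for Tle6. A lone pool was assumed to vary like the other age, and the counts at an unadjusted p in these fits rest on that assumption. The counts in input are given without a share of all genes, so they have no background here.

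Old and young pools share a replicate number and nothing else in the labels, and the deviations of same-numbered pools correlated at 0.0786 in HA, 0.0269 in input and 0.0108 in TE. With the replicate block, 1 member passed the adjustment in HA (Zbed3, log2 difference 1.67, adjusted p = 0.00162 in limma, with 0.101% of all 8898 genes). No member passed in input or TE, compared with 0.00950% and 0% of all genes. The numbers were not taken as pairs.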
